A study of Mus musculus with 8 samples.

Results

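Aldehyde dehydrogenases are enzymes that oxidise aldehydes to carboxylic acids, and the 10 genes described here, Aldh1a1, Aldh1a7, Aldh1b1, Aldh2, Aldh3a2, Aldh4a1, Aldh6a1, Aldh7a1, Aldh8a1 and Aldh9a1, were taken by name from a table of read counts for 28073 mouse genes. The table lists 21 genes of the family, and all 10 members were among the 14088 genes with enough counts to be tested. The RNA came from livers of 8 C57BL/6 mice aged 21 to 22 weeks, 4 on a control diet low in fat and 4 on a diet high in fat. C57BL/6 is an inbred laboratory strain, and no transgene or drug is named for either group. The labels used here state neither sex nor length of feeding, and give no diet make-up or hour of collection. The study asked how a high-fat diet alters hepatic nuclear receptors and what they regulate.

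The liver holds aldehyde dehydrogenases in the cytosol, the mitochondria, the endoplasmic reticulum and the peroxisomes. There they clear acetaldehyde from ethanol, fatty aldehydes from membrane and storage lipids, and aldehydes from lipid peroxidation. Others serve as fixed steps of amino acid breakdown, of carnitine synthesis and of the conversion of vitamin A to retinoic acid. The family therefore joins lipid, alcohol, amino acid and vitamin metabolism without being 1 pathway.

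On the high-fat diet Aldh3a2 rose 3.27-fold and Aldh1a1 rose 1.47-fold, while Aldh1b1 and Aldh9a1 fell slightly, to 0.803 and 0.866 of their control level. The other 6 members did not pass. Over 19 alternative settings the call held in all for Aldh3a2. It was lost in 6 for Aldh1a1, 3 for Aldh1b1 and 13 for Aldh9a1. The test was edgeR's quasi-likelihood test with Benjamini-Hochberg adjustment over all tested genes, called at an adjusted p of 0.05. So 4 of 10 members were called, beside 9.61% of all tested genes, with 2 of 10 higher beside 3.75% and 2 of 10 lower beside 5.86%. The groups did not overlap for 6 of the 10 members, beside 17.3% of all tested genes. An unadjusted edgeR p under 0.05 was found for 6 of 10, beside 24.9%. The members were chosen with earlier results of these data known, so these shares are no independent test of the family. The whole-table shares also include genes with far fewer counts. Of the 8 other tested Aldh genes, 1 was called. The median log2 fold change (high-fat over control) was 0.046 over the members and 0.0069 over all tested genes. Every member was well covered, with 1850 to 64662 counts per library at totals of 26643020 to 30013106. CPM below are counts scaled to a common library total after TMM (a correction for differences in library composition), so that 1 count stood for 0.034 to 0.039 CPM. The samples are pieces of whole liver, in which fewer cells of a type and less RNA per cell cannot be told apart.

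**Figure D1:**
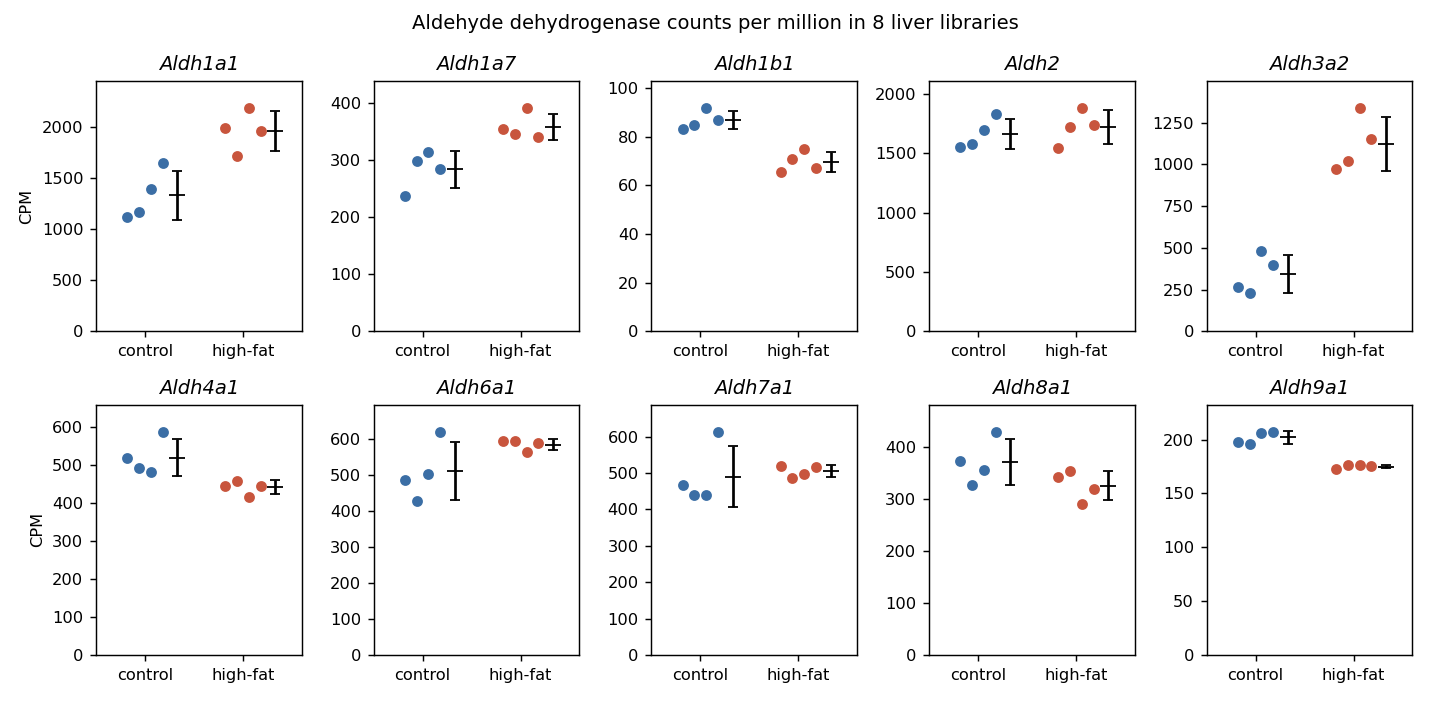
CPM of each gene in the 4 control libraries (blue, replicates 1 to 4 from left to right) and the 4 high-fat libraries (red), with the mean and SD of each group in black; every axis starts at 0. For Aldh3a2 the high-fat libraries lie between 972 and 1339 CPM and the control libraries between 231 and 480 CPM, and Aldh2 overlaps between the diets.

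Aldh3a2 encodes the fatty aldehyde dehydrogenase of the endoplasmic reticulum and peroxisomes, which oxidises long-chain aldehydes, among them those from sphingolipids, ether lipids and phytol. In humans its loss causes Sjögren-Larsson syndrome, and its gene is a known target of the fatty acid receptor PPARA. It had 265, 231, 480 and 395 CPM in control replicates 1 to 4 and 972, 1021, 1339 and 1153 CPM in high-fat replicates 1 to 4. The lowest high-fat library thus lay far above the highest control library, and control replicate 3 was the highest control. The mean was 343 ± 116 CPM on the control and 1121 ± 164 CPM on the high-fat diet (SD, n = 4 per group), with a log2 fold change of 1.71 ± 0.23 (SE; edgeR adjusted p = 0.00362). It passed in all 19 alternative settings, with log2 fold changes from 1.56 without control replicate 2 to 1.92 without control replicate 3. Aldh3a2 (ENSMUSG00000010025.19) lies on chromosome 11, 61223417 to 61267464, minus strand in mm10, and no other gene of the table overlaps it.

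The 300 bases around the annotated start of Aldh3a2, from 250 before to 50 after it, are shown because this gene moved most. They come from RefSeq on GRCm38.p6 (the assembly that mm10 names), and capitals mark the motifs found.
Aldh3a2 chr11:61267137-61267436, minus strand: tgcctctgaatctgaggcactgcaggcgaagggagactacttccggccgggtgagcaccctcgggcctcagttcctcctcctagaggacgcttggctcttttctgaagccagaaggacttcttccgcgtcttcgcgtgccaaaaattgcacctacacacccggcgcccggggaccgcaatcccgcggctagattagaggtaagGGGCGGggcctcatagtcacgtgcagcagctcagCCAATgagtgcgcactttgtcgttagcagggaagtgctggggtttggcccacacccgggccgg
A GC box (GGGCGG) stands at bases 204 to 209 and a CCAAT box (CCAAT) at bases 238 to 242 of this window, counted from its 5′ end. On both strands 6 motifs were searched: the TATA box TATAAA, the CCAAT box, the GC box GGGCGG, the nuclear receptor hexamer AGGTCA, that hexamer repeated in the same direction with 1 base between (the type of element PPARA binds), and the antioxidant response core TGACNNNGC. Of 32851 RefSeq mouse promoter windows of this length, 35.7% hold GGGCGG, 37.4% CCAAT, 16.3% AGGTCA, 12.4% TGACNNNGC, 13.6% TATAAA and 0.0396% the repeat. The window of Aldh3a2 holds neither AGGTCA nor the repeat, which says only that these letters are not in these 300 bases. It has 21 CG dinucleotides, against a median of 7 over all windows.

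Aldh1a1 encodes the cytosolic retinaldehyde dehydrogenase that makes retinoic acid and also oxidises lipid peroxidation aldehydes. Its levels were 1120, 1166, 1391 and 1646 CPM in control replicates 1 to 4 and 1989, 1715, 2188 and 1957 CPM in high-fat replicates 1 to 4. All high-fat libraries were above all controls, but control replicate 4 and high-fat replicate 2 lay close together. The mean rose from 1331 ± 241 to 1962 ± 194 CPM (log2 fold change 0.56 ± 0.14, edgeR adjusted p = 0.0323). The call ended when 1 of 5 libraries was left out, namely control replicate 1, control replicate 2 or one of high-fat replicates 1, 3 and 4, with edgeR adjusted p from 0.0713 to 0.0876 at log2 fold changes from 0.48 to 0.57.

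Aldh1a7, a rodent paralog of Aldh1a1 beside it on chromosome 19, had 237, 298, 314 and 285 CPM in the controls and 354, 345, 391 and 340 CPM in the high-fat libraries. These groups did not overlap either, with means of 283 ± 33.0 and 358 ± 22.9 CPM. The log2 fold change of 0.34 ± 0.095 narrowly missed the threshold (edgeR adjusted p = 0.0544). It passed in 6 of 19 alternatives, among them DESeq2 (adjusted p = 0.00861), the omission of control replicate 3 (0.39, edgeR adjusted p = 0.0395) and library totals alone (0.43, edgeR adjusted p = 0.0265). The 19 alternatives ranged up to an adjusted p of 0.186, reached without control replicates 1 and 4, where the log2 fold change was 0.22. The counts of the pair may not be fully separate. Their coding sequences, each 1503 bases long, are identical at 91.6% of bases, the closest pair among the 10 members, followed by Aldh1b1 and Aldh2 at 69.04%. Of all 50-base windows of the longest coding transcript, 6.54% in Aldh1a1 and 7.49% in Aldh1a7 also occur in the other gene. The ratio of Aldh1a1 to Aldh1a7 CPM was 4.71 ± 0.786 on the control and 5.48 ± 0.349 on the high-fat diet.

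The promoter windows of this pair are shown because the paralogs lie in opposite orientation within the same region and share sequence up to their starts. Capitals mark runs of at least 10 bases that are the same at the same place in both windows.
Aldh1a1 chr19:20601718-20602017, plus strand: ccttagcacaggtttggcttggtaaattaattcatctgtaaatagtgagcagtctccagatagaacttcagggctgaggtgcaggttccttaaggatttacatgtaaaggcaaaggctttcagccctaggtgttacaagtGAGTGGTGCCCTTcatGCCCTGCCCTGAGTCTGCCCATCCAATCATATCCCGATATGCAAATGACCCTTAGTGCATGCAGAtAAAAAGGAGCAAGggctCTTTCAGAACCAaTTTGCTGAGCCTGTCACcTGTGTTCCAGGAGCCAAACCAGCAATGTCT
Aldh1a7 chr19:20727507-20727806, minus strand: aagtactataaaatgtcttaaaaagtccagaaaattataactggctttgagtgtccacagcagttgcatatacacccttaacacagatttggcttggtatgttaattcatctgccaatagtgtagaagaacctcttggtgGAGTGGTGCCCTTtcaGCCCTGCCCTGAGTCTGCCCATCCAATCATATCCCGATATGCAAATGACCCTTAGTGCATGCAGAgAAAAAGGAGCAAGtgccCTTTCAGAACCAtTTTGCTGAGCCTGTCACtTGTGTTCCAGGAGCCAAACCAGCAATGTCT
Base for base 177 of 300 positions are identical. Of these, 142 are among the 150 bases nearer to and past the start, and 35 among the 150 bases farther out. No gaps were allowed, so sequence shared at shifted places was not counted. For example, tttggcttggta and ttaattcatctg occur in the outer part of both windows, at different places. The 35 matches therefore do not show where the shared sequence ends. The longest run spans 65 bases, from base 157 to base 221, and holds a CCAAT box at bases 179 to 183 in both genes. Aldh1a1 has another CCAAT at bases 249 to 253, while Aldh1a7 has another at bases 114 to 118 and a TATAAA at bases 7 to 12. Each window has 1 CG dinucleotide, far fewer than that of Aldh3a2. RefSeq gives Aldh1a1 another start upstream, whose window holds none of the 6 motifs. The deposited coordinates of Aldh1a1 (ENSMUSG00000053279.6, chromosome 19, 20601961 to 20643462, plus strand) begin at the start shown, and those of Aldh1a7 (ENSMUSG00000024747.3) run from 20692953 to 20727562 on the minus strand.

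Aldh2, the mitochondrial enzyme that clears acetaldehyde after drinking, did not pass the test. It had 1552, 1583, 1695 and 1831 CPM in the controls and 1542, 1720, 1885 and 1743 CPM in the high-fat libraries, so the groups overlapped throughout. The means were 1666 ± 126 and 1723 ± 141 CPM (log2 fold change 0.049 ± 0.094, edgeR adjusted p = 0.790). No alternative called it, and its log2 fold change ran from 0.0013 to 0.15 over them. Aldh2 (ENSMUSG00000029455.14) lies on chromosome 5, 121566027 to 121593824, minus strand.

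Aldh1b1, a mitochondrial relative of Aldh2 that also accepts acetaldehyde, fell. Its levels were 83.2, 84.9, 91.9 and 86.9 CPM in the controls and 65.6, 70.8, 74.9 and 67.2 CPM in the high-fat libraries, with a gap between the groups. The mean fell from 86.7 ± 3.74 to 69.6 ± 4.13 CPM (log2 fold change -0.32 ± 0.062, edgeR adjusted p = 0.0141). With library totals in place of TMM the log2 fold change was -0.22 and did not pass (edgeR adjusted p = 0.0652, the highest of its 19 alternatives), and without high-fat replicate 4 edgeR gave an adjusted p = 0.0502 at -0.29. The promoter window of Aldh1b1 is given as that of the member with the smallest p among those that fell, with motifs in capitals.
Aldh1b1 chr4:45798772-45799071, plus strand: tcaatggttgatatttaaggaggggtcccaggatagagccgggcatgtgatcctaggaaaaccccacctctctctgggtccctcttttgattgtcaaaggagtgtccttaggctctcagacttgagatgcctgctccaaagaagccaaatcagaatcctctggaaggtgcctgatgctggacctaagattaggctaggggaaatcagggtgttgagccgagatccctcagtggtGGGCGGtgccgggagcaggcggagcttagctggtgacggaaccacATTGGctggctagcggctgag
It holds GGGCGG at bases 235 to 240 and, on the other strand, CCAAT at bases 280 to 284, with 7 CG dinucleotides. The gene (ENSMUSG00000035561.5) spans chromosome 4, 45799022 to 45804604, plus strand.

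Of the members that act as fixed steps of amino acid breakdown, Aldh4a1, Aldh6a1, Aldh7a1 and Aldh8a1, none passed in the main fit. Aldh4a1 oxidises glutamate semialdehyde, the product of proline breakdown. Its levels were 517, 491, 480 and 588 CPM in the controls and 445, 459, 416 and 445 CPM in the high-fat libraries, so the groups did not overlap (log2 fold change -0.23 ± 0.081, edgeR adjusted p = 0.104). Aldh4a1 (ENSMUSG00000028737.15) spans chromosome 4, 139622866 to 139649690, plus strand. Only DESeq2 called it among the alternatives (adjusted p = 0.0322; the others reached up to 0.347). The gene model Gm21969 overlaps Aldh4a1 on the same strand and had 48.04% of its mean count. It contains 45.0% of the 50-base windows of the Aldh4a1 transcript, so reads of the pair may have been divided or counted for both. Gm21969 itself was called lower (log2 fold change -0.30, edgeR adjusted p = 0.0360).

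Aldh6a1, the methylmalonate semialdehyde dehydrogenase of valine breakdown, had 487, 428, 504 and 621 CPM in the controls and 594, 594, 563 and 589 CPM in the high-fat libraries. The control replicate 4 value was above every high-fat value, so the groups overlapped (log2 fold change 0.197 ± 0.11, edgeR adjusted p = 0.293). With that library left out the gene passed at 0.30 (edgeR adjusted p = 0.0402), while its other alternatives reached up to 0.518. Aldh6a1 (ENSMUSG00000021238.10) spans chromosome 12, 84430723 to 84450950, minus strand.

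Aldh7a1, which oxidises aminoadipate semialdehyde from lysine and betaine aldehyde from choline, had 467, 439, 439.6 and 614 CPM in the controls and 519, 487, 497 and 518 CPM in the high-fat libraries. Control replicate 4 again stood above all others (log2 fold change 0.044 ± 0.11, edgeR adjusted p = 0.843). Its sign was not stable: the log2 fold change was -0.0065 without control replicate 2, -0.0054 without control replicate 3 and 0.17 without control replicate 4, and none of these passed. The gene Phax, which overlaps it on the opposite strand, had 4.88% of its mean count.

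Aldh8a1 oxidises aminomuconate semialdehyde in the kynurenine pathway of tryptophan, a role established for the human enzyme. It had 373, 327, 356 and 431 CPM in the controls and 342, 354, 291 and 319 CPM in the high-fat libraries, which overlapped (log2 fold change -0.19 ± 0.099, edgeR adjusted p = 0.282). No alternative called it. Aldh8a1 (ENSMUSG00000037542.13) spans chromosome 10, 21377291 to 21396585, plus strand.

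Aldh9a1 oxidises trimethylaminobutyraldehyde, a step of carnitine synthesis, and aminobutyraldehyde from polyamines. Its levels lay in narrow bands, at 198, 196, 206.5 and 207 CPM in the controls and 172, 176, 176 and 175 CPM in the high-fat libraries. The mean fell from 202 ± 5.81 to 175 ± 1.71 CPM (log2 fold change -0.21 ± 0.054, edgeR adjusted p = 0.0410). The groups stayed apart, but the call lay near the threshold: leaving out any 1 library ended it, with edgeR adjusted p from 0.0596 to 0.107 and log2 fold changes from -0.22 to -0.195. It also ended with library totals alone (log2 fold change -0.11, edgeR adjusted p = 0.200). The same held with upper-quartile factors (-0.18, edgeR adjusted p = 0.0604) and without the low-count filter (-0.22, edgeR adjusted p = 0.137). The call was lost in 13 of 19 alternatives. Aldh9a1 (ENSMUSG00000026687.14) spans chromosome 1, 167349991 to 167368532, plus strand. Its promoter window holds the antioxidant response core, as TGACTAGGC at bases 164 to 172. That was the only match to the core in the windows of the 8 members that had one. Aldh2 and Aldh7a1 had no window and were not searched. The hexamer AGGTCA was matched at bases 157 to 162 of an Aldh6a1 window that lies inside the gene (chr12:84448268-84448567). The window nearest the deposited start of Aldh6a1 (chr12:84450975-84451274) did not hold it.

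**Figure D2:**
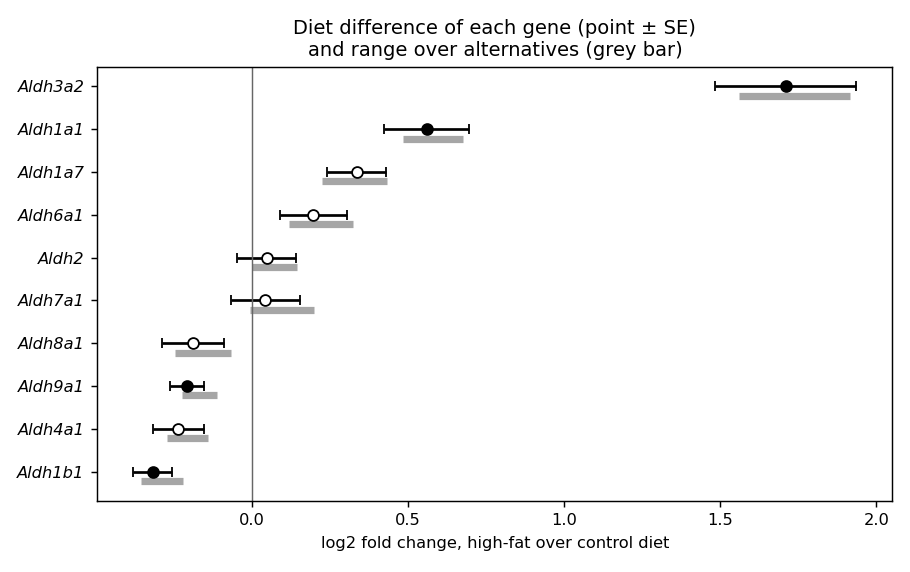
Log2 fold change of each gene (high-fat over control diet; point and SE; filled points passed at an adjusted p of 0.05) with a grey bar for the range over the 19 alternative settings. Aldh3a2 at 1.71 lies apart from the rest, the next being Aldh1a1 at 0.56, and only the bar of Aldh7a1 crosses 0.

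Compared per length, as CPM per kilobase of the longest basic coding transcript, Aldh1a1 and Aldh2 were the most abundant members on the control diet and Aldh1b1 the least. The control levels were 564 ± 102 CPM per kilobase for Aldh1a1 and 431 ± 32.7 for Aldh2. Then came Aldh8a1 at 164.5 ± 19.3, Aldh4a1 at 153 ± 14.3, Aldh6a1 at 150.1 ± 23.7, Aldh1a7 at 137 ± 15.98, Aldh7a1 at 119 ± 20.3 and Aldh3a2 at 111 ± 37.5 CPM per kilobase. The libraries of neighbours in this middle series overlapped. Aldh9a1 at 71.2 ± 2.05 and Aldh1b1 at 37.7 ± 1.63 CPM per kilobase lay below it without overlap.

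On the high-fat diet Aldh3a2 moved most in the order of levels, from rank 8 to rank 3. Aldh8a1 went from rank 3 to rank 6, Aldh4a1 from rank 4 to rank 7 and Aldh1a7 from rank 6 to rank 4. At 363 ± 53.1 CPM per kilobase the libraries of Aldh3a2 overlapped those of Aldh2, at 445.5 ± 36.4, and lay above those of Aldh1a7, at 173 ± 11.1. Aldh1a1 stood first at 832 ± 82.2 CPM per kilobase. With the union of all annotated exons as the length, a choice made after seeing the data, Aldh3a2 also held rank 8 and rank 3. By that length Aldh8a1 held ranks 7 and 8, Aldh4a1 ranks 4 and 7, and Aldh1a7 ranks 3 and 4. Aldh2 then stood above Aldh1a1 on the control diet, at 325 against 270 CPM per kilobase. The 10 genes together summed to 5802 ± 684 CPM on the control and 7266 ± 403 CPM on the high-fat diet. Aldh3a2 made up 4.41% to 8.06% of that sum in the control libraries and 13.9% to 17.1% in the high-fat libraries.

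**Figure D3:**
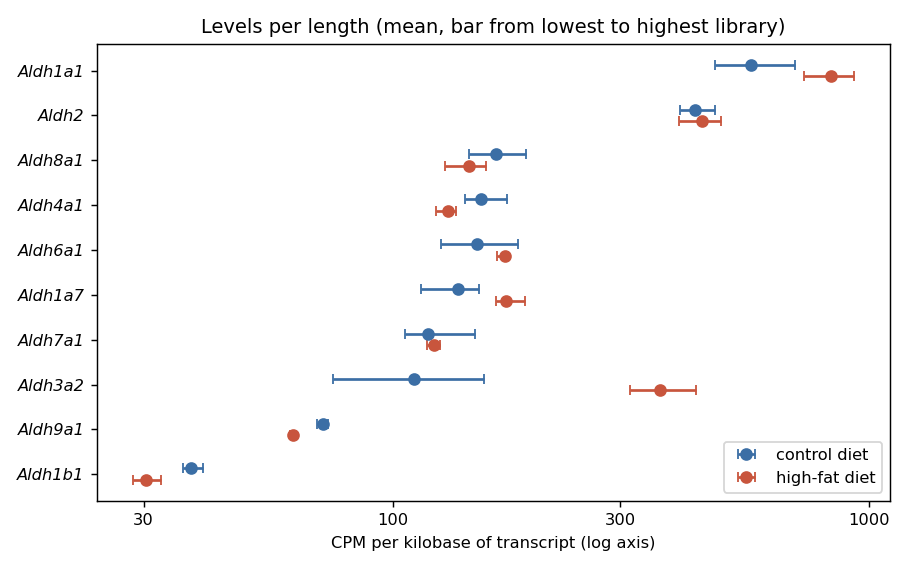
Level of each gene in CPM per kilobase of transcript on a log axis, for the control (blue) and high-fat (red) diets; points are means of 4 libraries and bars run from the lowest to the highest library. Aldh3a2 moves from 111 to 363 CPM per kilobase, and the bars of Aldh2 nearly coincide.

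The controls varied more than the high-fat libraries for 8 of the 10 members, by coefficient of variation, as they did for 63.5% of all tested genes. In Aldh6a1 it was 15.8% among controls and 2.53% among high-fat libraries, and in Aldh7a1 17.1% and 3.17%. Aldh3a2 varied most, with 33.8% and 14.6%. Control replicate 4 was the highest control for 7 of the 10 members, and high-fat replicate 3 the highest high-fat library for 6 of 10.

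Of the other 11 Aldh genes in the table, 8 were tested and 1 was called. Aldh1l1, the cytosolic formyltetrahydrofolate dehydrogenase of one-carbon metabolism, was the most abundant of them and fell from 1733 ± 317 to 1089 ± 90.2 CPM (log2 fold change -0.67 ± 0.14, edgeR adjusted p = 0.0160). Omitting control replicates 1 and 4 ended that call (-0.48, edgeR adjusted p = 0.0728). The retinaldehyde dehydrogenase genes Aldh1a2 and Aldh1a3 were near the floor, with 2 to 38 and 18 to 44 counts per library, and Aldh3a1, Aldh3b2 and Aldh3b3 had at most 12 counts and were not tested.

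None of the enzymes listed next to Aldh3a2 was called higher. Of 9 tested genes of fatty aldehyde, sphingosine 1-phosphate and phytol breakdown 2 fell and 0 rose, with a list median log2 fold change of -0.032. Over all tested genes 3.75% were called higher and 5.86% lower, so 0 of 9 higher does not set this list apart. Hacl1, the lyase that releases a fatty aldehyde in phytanic acid breakdown, fell from 409 ± 26.9 to 256 ± 15.5 CPM (log2 fold change -0.68 ± 0.075, edgeR adjusted p = 0.00191). Sgpl1, the lyase that splits sphingosine 1-phosphate into a fatty aldehyde and phosphoethanolamine, fell from 130 ± 9.14 to 94.96 ± 6.52 CPM (-0.45 ± 0.074, edgeR adjusted p = 0.00745).

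Around Aldh1a1, 1 of 18 tested genes of retinol oxidation and retinoid handling rose and 2 fell (list median -0.098). Rdh11, a retinol dehydrogenase, fell from 192 ± 54.4 to 40.3 ± 2.504 CPM (-2.25 ± 0.20, edgeR adjusted p = 8.14e-04). The retinaldehyde reductase Dhrs3 fell as well (-0.39 ± 0.089, edgeR adjusted p = 0.0253). Dhrs4, a peroxisomal carbonyl reductase, rose (0.37 ± 0.087, edgeR adjusted p = 0.0290). The last pair were lost in 6 of 19 alternatives each. Of 8 genes of ethanol oxidation and acetate activation 1 passed, or 2 by DESeq2. It was Acss2, the cytosolic acetyl-CoA synthetase, which fell from 684 ± 156 to 160 ± 7.74 CPM (-2.10 ± 0.15, edgeR adjusted p = 5.98e-04). The alcohol dehydrogenases, Cyp2e1 and catalase in that list did not pass by edgeR (list median -0.11).

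Counts called in the amino acid pathways of the 4 members that were not called are read against 9.61% of all tested genes. Those at an unadjusted edgeR p of 0.05 are read against 24.9%. The same shares apply to the other gene and marker lists. All gene lists were chosen with earlier results of these data known. In branched-chain amino acid and propionate breakdown, to which Aldh6a1 belongs, edgeR called 0 of 17 tested genes, with 3 at an unadjusted p of 0.05 and 1 by DESeq2 (list median -0.051). In lysine breakdown, beside Aldh7a1, 1 of 11 rose, the short-chain hydroxyacyl-CoA dehydrogenase Hadh, shared with fatty acid oxidation (274 ± 30.3 to 395 ± 35.1 CPM, 0.53 ± 0.098, edgeR adjusted p = 0.0116); without control replicates 1 and 4 edgeR gave it an adjusted p = 0.0644. In that list 4 of 11 had an unadjusted edgeR p under 0.05, and DESeq2 called 2 (list median -0.015). In choline oxidation and betaine use 1 of 6 fell, the glycine methyltransferase Gnmt (-0.71 ± 0.18, edgeR adjusted p = 0.0399), which was lost in 9 of 19 alternatives. Here 3 of 6 had an unadjusted edgeR p under 0.05, and DESeq2 called 3 (list median -0.22). In proline, hydroxyproline and ornithine breakdown, beside Aldh4a1, 2 of 9 fell, 4 of 9 had an unadjusted edgeR p under 0.05, and DESeq2 called 2 (list median -0.13). These were Agxt, which detoxifies glyoxylate (263 ± 46.3 to 120 ± 32.2 CPM, -1.13 ± 0.20, edgeR adjusted p = 0.0102), and Hoga1, the hydroxyproline aldolase (-0.32 ± 0.085, edgeR adjusted p = 0.0444), the latter lost in 12 of 19 alternatives. Agxt did not pass without control replicates 1 and 4 (edgeR adjusted p = 0.0599).

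The kynurenine pathway, beside Aldh8a1, had 2 of 10 tested genes lower and 0 higher, with a list median of -0.296. An unadjusted edgeR p under 0.05 was found for 6 of 10, and DESeq2 called 4. Acmsd, the decarboxylase whose product Aldh8a1 oxidises, fell from 37.2 ± 13.1 to 13.8 ± 1.85 CPM (-1.43 ± 0.26, edgeR adjusted p = 0.0112). Ccbl1, a kynurenine aminotransferase, fell from 125 ± 17.2 to 68.05 ± 16.8 CPM (-0.87 ± 0.18, edgeR adjusted p = 0.0160). Both calls ended without control replicates 1 and 4 (edgeR adjusted p = 0.0699 and 0.0729).

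In carnitine synthesis and uptake, beside Aldh9a1, 1 of 4 tested genes rose and 1 fell. The carnitine transporter Slc22a5 rose from 9.36 ± 0.908 to 16.8 ± 2.95 CPM (0.85 ± 0.13, edgeR adjusted p = 0.00600). The serine hydroxymethyltransferase Shmt1 fell (-0.34 ± 0.085, edgeR adjusted p = 0.0360, lost in 9 of 19 alternatives). Among 13 tested carbonyl reductases and aldehyde oxidases outside the family, the aldehyde oxidase Aox1 passed, rising from 94.8 ± 26.9 to 191 ± 29.7 CPM (1.01 ± 0.18, edgeR adjusted p = 0.0104). The carbonyl reductase Cbr1, named after its values were seen, missed narrowly (0.40 ± 0.11, edgeR adjusted p = 0.0508). The count of called genes in that list was 2 or 3 in 9 of 19 alternatives, among them DESeq2 and library totals alone with 3 each, and the fits without control replicate 4 (3) or high-fat replicate 1 (2).

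**Figure D4:**
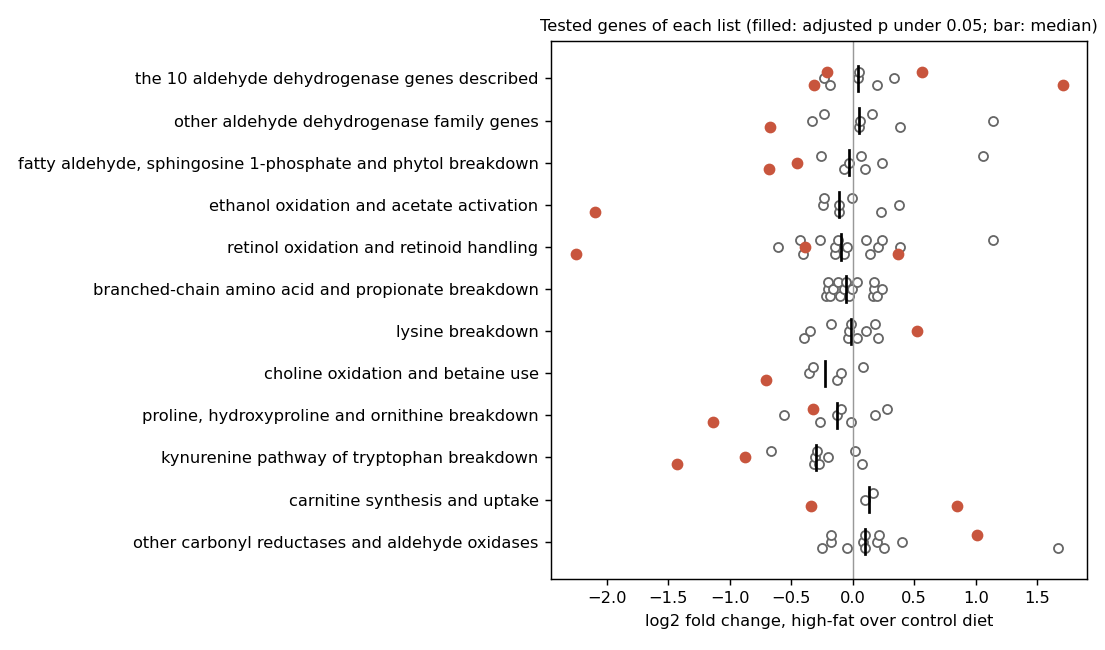
Log2 fold change of each tested gene in the 10 members, the other Aldh genes and the pathways around them; filled points passed at an adjusted p of 0.05 and black bars are list medians. Aldh3a2 at 1.71 is the farthest right of the called genes, and the largest falls are those of Rdh11 at -2.25 and Acss2 at -2.10.

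The genes whose pattern was most like that of Aldh3a2 over the 8 libraries, by Pearson r of log2 CPM, were Abcb4, Hsd17b4, Acad11, Cidec and Chpt1, with r from 0.992 to 0.996. Abcb4 encodes the phospholipid exporter of bile, Hsd17b4 a peroxisomal oxidation enzyme, Acad11 an acyl-CoA dehydrogenase, Cidec a lipid droplet protein and Chpt1 a choline phosphotransferase. Each r spans both diets, and all 5 genes were called higher on the high-fat diet, Acad11 not without control replicates 1 and 4. The sizes of their differences were unequal: from 3.23 to 96.8 CPM in Cidec and from 455 to 643 CPM in Acad11. For Aldh1a1 the nearest were Ephx1, the microsomal epoxide hydrolase (r = 0.980), Ubap1 (0.980) and Pdxdc1 (0.979). Ephx1 was called higher (log2 fold change 1.24 ± 0.22, edgeR adjusted p = 0.0103). Ubap1 and Pdxdc1 were not called (edgeR adjusted p = 0.0713 and 0.109). For Aldh1b1 the nearest were Ndufb8, a subunit of respiratory complex I (r = 0.975), Yipf4 (0.970) and Aldh9a1 (0.956). Ndufb8 was called lower, and Yipf4 was not called (edgeR adjusted p = 0.00836 and 0.141). For Aldh9a1 the nearest were Fau, a ribosomal protein fusion gene (r = 0.989), Tardbp, which encodes an RNA-binding protein (0.988), and Cox7b, a subunit of cytochrome oxidase (0.982). Fau, Tardbp and Cox7b were called lower, Cox7b not without control replicates 1 and 4.

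**Figure D5:**
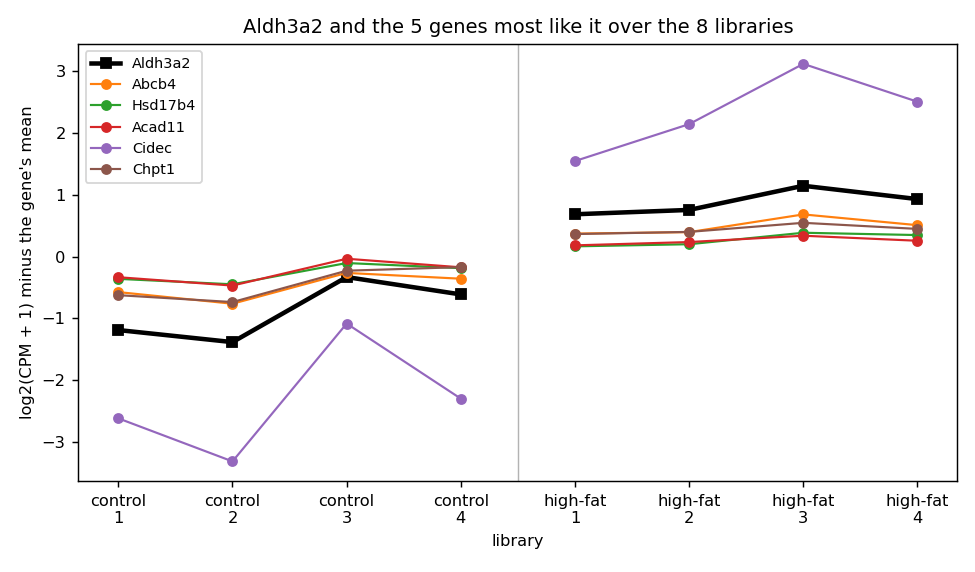
Log2(CPM + 1) of Aldh3a2 (black squares) and of the 5 genes most like it, each minus its own mean, in the 4 control and 4 high-fat libraries. All 6 have their lowest value in control replicate 2 and their highest in high-fat replicate 3, and Cidec spans the widest range.

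Hepatocyte markers were abundant in every library, and their summed level was lower on the high-fat diet. The 8 markers together had 76190 to 111600 CPM (of unscaled totals) in the controls and 71700 to 74040 CPM in the high-fat libraries. Of the 8, 3 fell: Cps1, Tat and Serpina1c. Alb was the largest part of the sum. In TMM-scaled CPM it went from 58210 ± 16020 to 40230 ± 719.5, with overlapping groups, and did not pass (log2 fold change -0.53, edgeR adjusted p = 0.1505). Apoa1 and Ttr did not pass either (-0.51 and -0.36). Apob and Hnf4a went the other way and did not pass (0.087 and 0.019). Among markers of other cells, none of 6 macrophage, 6 stellate, 5 endothelial, 5 bile duct and 3 tested blood genes passed by edgeR, with 0, 1, 1, 1 and 1 at an unadjusted p of 0.05. Their summed CPM in controls and high-fat libraries were 197 to 486 and 246 to 403 for macrophage, 378 to 456 and 397 to 505 for stellate, and 306 to 368 and 335 to 400.5 for endothelial genes. For bile duct genes they were 34.3 to 64.9 and 45.3 to 95.6, and for blood genes 32.4 to 59.8 and 47.2 to 105. Of 7 adipocyte markers 3 could be tested and 1 rose, Cfd, from 1.518 ± 1.455 to 41.1 ± 23.5 CPM (4.74 ± 0.695, edgeR adjusted p = 0.00525). Cfd had 51, 0, 97 and 21 counts in control replicates 1 to 4. Fabp4 did not overlap between the diets but did not pass (0.706 ± 0.1995, edgeR adjusted p = 0.0550), and neither did Car3 (0.059). The summed CPM of the 7 markers, nearly all Car3, were 2665 to 4365 and 3620 to 4090. The adipocyte genes Adipoq and Plin1 had 42 and 34 counts in control replicate 1 and 32 and 22 in control replicate 4, and at most 10 and 9 in the other libraries. Without those controls the log2 fold change was 1.65 for Aldh3a2, 0.62 for Aldh1a1, -0.35 for Aldh1b1 and -0.21 for Aldh9a1, and all but Aldh9a1 passed (edgeR adjusted p = 0.0234, 0.0402, 0.0466 and 0.124). The part of the hepatocyte markers in the differences was not tested.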

How the data were processed

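Per the labels' protocols, frozen liver gave total RNA (mirVana kit) for TruSeq Stranded Total RNA libraries. The authors deposited whole-number read counts per gene with coordinates; bcl2fastq 2.20.0.422, Trimmomatic 0.32, TopHat2 2.1.1 and mm10 are named in the submitters' processing notes. For the counting tool and its strand setting: not given in the sources used here. Replicate numbers follow sample order and pair nothing. The labels call the mice biological replicates and name no batch.

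The whole table was fitted with edgeR 4.0.16 in R 4.3.3 (filterByExpr, TMM, quasi-likelihood test, no covariates, 4 against 4 libraries) and adjusted by Benjamini-Hochberg over 14088 genes. Each SE is the size of the log2 fold change over the square root of F. CPM means carry the SD over 4 libraries. Likeness was computed on log2 CPM (prior count 3) among genes averaging 10 CPM or more. Transcript lengths and windows came from GENCODE M21, which shares the assembly. The fit was tested on simulated data of 13951 genes. It recovered 90% of 100 genes changed at a log2 fold change of 1 and 99% of 100 at 2. The changed genes were drawn only from those above a floor of mean counts, so recovery of genes with fewer counts was not tested. The simulated noise was independent between genes, without effects shared within a library. There were 7 false calls. Smaller changes, such as those of Aldh1a1, Aldh1b1 and Aldh9a1, were not simulated. RefSeq promoter windows matched 8 of the 10 members by symbol, all but Aldh2 and Aldh7a1. Alternatives were RLE, upper-quartile and no factors, other filters (none; 1 CPM in 4 libraries), DESeq2 1.42.0, limma-voom (limma 3.58.1), leaving out the 10 genes with most counts, 1 surrogate variable (sva 3.50.0), a threshold of 0.01 and left-out libraries. The members and gene lists were chosen with earlier results of these data known. Named were all members, called Aldh genes, up to 3 called genes per list by smallest p, and the genes most like each called member.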

Additional observations from a re-analysis of the deposited data

Results flagged for a closer look

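In 9 of 78 groups of 4 libraries, over 39 named genes, 1 library stood apart by Dixon's criterion (gap to the nearest library over the range); chance alone marks about 1 in 20. Among the members, Aldh7a1 had 614 CPM in control replicate 4 against 439 to 467 CPM in the other controls. Aldh6a1 had 563 CPM in high-fat replicate 3 against 589 to 594 CPM, and Aldh9a1 had 172 CPM in high-fat replicate 1 against 175 to 176 CPM, both small gaps within tight groups. Aldh1l1 had 954 CPM in high-fat replicate 3 against 1128 to 1143 CPM. Control replicate 3 was low in Acmsd, at 17.8 CPM against 42.1 to 46.5 CPM, and in Shmt1, at 286 CPM against 318 to 324 CPM, and high in Ndufb8, at 124 CPM against 112.5 to 114.3 CPM. Aox1 had 135 CPM in control replicate 4 against 79.1 to 83.1 CPM, and Ubap1 had 45.2 CPM in high-fat replicate 2 against 49.9 to 50.8 CPM.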

How the results depend on the processing

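Over 39 named genes and 19 alternatives each, 645 values kept their direction and side of the threshold, 80 lost the call, 14 gained one and 2 changed sign, both in Aldh7a1 (-0.0065 and -0.0054 without control replicate 2 or 3, and up to 0.17 without control replicate 4). The number of members called higher was 2 and ranged from 1 to 3 with 1 library left out, and the number lower was 2 and ranged from 0 to 1. At an adjusted p of 0.01, 1 member was higher and 0 lower. Members called lower numbered 0 with library totals alone and 1 with upper-quartile factors, without the low-count filter and without control replicates 1 and 4. Over all tested genes, 529 were higher and 825 lower. These became 1111 and 534 with library totals alone (median log2 fold change of all genes 0.101), 860 and 1193 with DESeq2, 148 and 221 at 0.01, and 282 and 461 without control replicates 1 and 4. With 1 library left out they ranged from 293 to 636 and from 432 to 843. The cause of these shifts was not tested, apart from fewer samples or a stricter threshold by construction.

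Genes called per list, either direction, numbered 1 (1 to 1) in other Aldh genes, 2 (2 to 2) in fatty aldehyde breakdown, 1 (1 to 2) in ethanol oxidation, 3 (1 to 4) in retinoid handling, 0 (0 to 2) in branched-chain amino acid breakdown, 1 (1 to 2) in lysine breakdown, 1 (0 to 1) in betaine use, 2 (1 to 2) in proline breakdown, 2 (2 to 3) in the kynurenine pathway, 2 (1 to 2) in carnitine synthesis, 1 (1 to 3) in carbonyl reductases and oxidases, with the range over 1 left-out library in brackets. Counts that moved by over 1.5 times in other settings follow; smaller moves, such as 3 to 4 in retinoid handling with library totals alone and 2 to 3 in the kynurenine pathway without the low-count filter, are not listed in full. At an adjusted p of 0.01 the count became 0 in other Aldh genes, 1 in retinoid handling, 0 in lysine breakdown, 0 in betaine use, 0 in proline breakdown, 0 in the kynurenine pathway, 1 in carnitine synthesis, 0 in carbonyl reductases and oxidases. With DESeq2 the count became 2 in ethanol oxidation, 1 in branched-chain amino acid breakdown, 2 in lysine breakdown, 3 in betaine use, 4 in the kynurenine pathway, 3 in carbonyl reductases and oxidases. With library totals alone the count became 2 in branched-chain amino acid breakdown, 2 in lysine breakdown, 1 in carnitine synthesis, 3 in carbonyl reductases and oxidases. Without control replicates 1 and 4 the count became 1 in branched-chain amino acid breakdown, 0 in lysine breakdown, 0 in betaine use, 1 in proline breakdown, 0 in the kynurenine pathway, 1 in carnitine synthesis. Without the low-count filter the count became 2 in lysine breakdown, 2 in carbonyl reductases and oxidases. With 1 surrogate variable the count became 2 in lysine breakdown, 1 in proline breakdown, 2 in carbonyl reductases and oxidases. With upper-quartile factors the count became 1 in proline breakdown, 2 in carbonyl reductases and oxidases. With RLE factors the count became 2 in carbonyl reductases and oxidases. With 1 CPM in 4 libraries the count became 2 in carbonyl reductases and oxidases.

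No paired analysis was made, because the labels pair no mice between the diets. Each group has 4 libraries, so calls near the threshold rest on single libraries. Every fit used the deposited counts, so the counting of the Aldh1a1 and Aldh1a7 pair and of Aldh4a1 with Gm21969 is common to all alternatives.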
